A study of Drosophila melanogaster with 8 samples.

Results

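The vacuolar ATPase (V-ATPase) subunit genes of Drosophila melanogaster were followed in RNA from whole embryos in which neural transcription factors were switched on throughout the body. The members are the genes whose deposited symbol starts with Vha, 33 of the 17321 symbols listed in both deposited tables. The rule uses the symbol alone. Of the 33 genes, 13 encode subunits of the V1 sector and 20 encode subunits or accessory proteins of the Vo sector.

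The V-ATPase is a rotary pump that uses ATP to move protons across membranes. The V1 sector lies in the cytoplasm and splits ATP, and the Vo sector lies in the membrane and carries the protons. The pump acidifies lysosomes, endosomes and synaptic vesicles in most cells, drives ion transport at the surface of insect epithelia such as the Malpighian tubules, and serves as a platform for nutrient sensing by the kinase TORC1 at the lysosome. Many of its subunits are encoded in flies by several paralogous genes, some of them used widely and others in few tissues.

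Embryos of stages 8 to 16 were collected for 2 separate experiments, with 2 libraries for each of 4 groups. Quad embryos carried the ubiquitous driver da-Gal4 with UAS transgenes for ase, Kr, wor and SoxN, which encode transcription factors of early neural development. QuadD embryos carried the same driver with UAS-ase-Vp16, UAS-Kr, UAS-wor-EnR and UAS-SoxN-EnR, in which ase is joined to the activation domain Vp16 and wor and SoxN to the repressor domain EnR. Ctrl embryos were the driver-only controls of the first experiment and Ctrl-D embryos those of the second, so da-Gal4 was present in all 4 groups. The names of both control groups also list the strain OregonR, which those of Quad and QuadD do not, so effects of strain and of the transgenes cannot be told apart. Each library came from a 50 mg collection of embryos, and the labels call the 2 collections of a genotype biological replicates.

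Expression was measured as RPKM, a read count scaled by gene length and library size, so levels can be compared between genes. Sequencing depth, relative to the deepest library, was 82.9% to 87.2% in Quad and Ctrl, 100% and 42.5% in the 2 QuadD libraries, and 41.5% and 39.6% in Ctrl-D. In the targeted genes, RNA of ase and wor rose in Quad (1.77 and 2.00, log2) and in QuadD (1.60 and 2.08), and SoxN rose in QuadD (0.41), each with an adjusted p under 0.05. SoxN in Quad was at 0.35 (adjusted p = 0.0536). Kr rose in Quad (1.33), but in QuadD it had 64.8 and 67.4 RPKM, against 69.2 and 57.5 in Ctrl-D (0.066, adjusted p = 0.637). The Kr transgene named in the QuadD label was thus not seen as a rise in total Kr RNA. Values per gene do not separate transgene RNA from that of the fly's own gene. The 2 Quad libraries stood apart from each other. Of the 19 widely expressed subunit genes defined below, 18 were lower in Quad replicate 2 than in replicate 1, with a median difference of -0.25 (log2) against 0.0090 over all genes above 1 RPKM in both. In Ctrl, 18 of the 19 were higher in replicate 2, and in Ctrl-D 17 of the 19.

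In driver-only embryos the subunit genes fell into 2 classes separated by a gap. By the mean of the 4 Ctrl and Ctrl-D libraries, 19 genes stood at 10 RPKM or more and are called widely expressed here, 9 of V1 and 10 of Vo. The other 14 stood below it, 4 of V1 and 10 of Vo. The lowest of the widely expressed genes was VhaM9.7-a at 21.6 RPKM, and the highest of the low ones was Vha100-4 at 3.89 RPKM. The mean of all 8 libraries gave the same 19 genes. Every subunit type of the pump was covered by at least 1 widely expressed gene.

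The highest level belonged to Vha16-1, the c subunit, whose copies form the proton-binding ring, with a mean of 482 RPKM. Next came Vha13 (subunit G, part of the outer stalks) at 277 RPKM, then Vha26 (subunit E, its stalk partner) at 161 RPKM and Vha14-1 (subunit F, of the central shaft) at 158 RPKM. The ranges of Vha26 and Vha14-1 over the 4 driver-only libraries overlapped. Vha55, the nucleotide-binding subunit B, averaged 128 RPKM. The catalytic subunit A was split between Vha68-2 at 109 RPKM and Vha68-1 at 57.7 RPKM. Subunit C, encoded by Vha44 and known to join V1 to Vo, was the lowest of the V1 genes in this class at 35.5 RPKM.

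**Figure D1:**
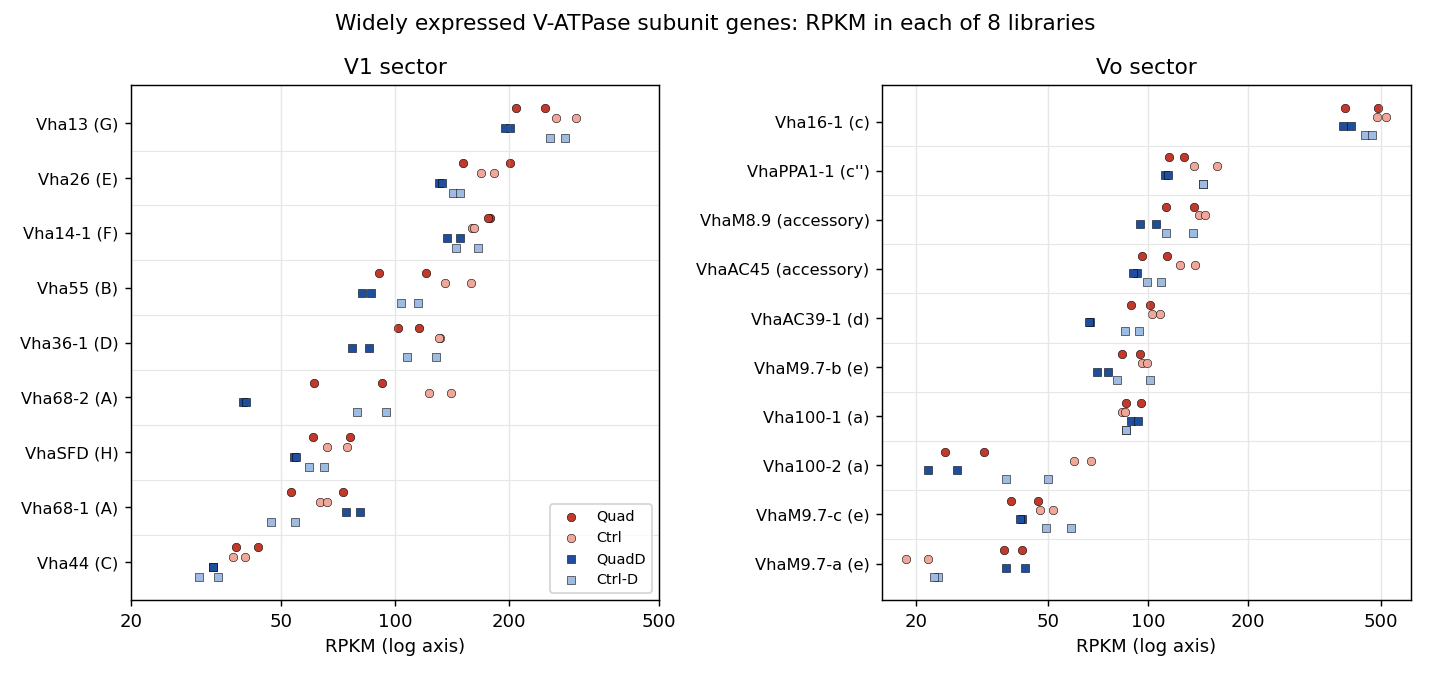
RPKM of the 19 widely expressed V-ATPase genes in each of the 8 libraries on a log axis, split by sector, with 1 point per library coloured by group. Vha16-1 lies highest, VhaM9.7-a lies lowest in the controls, and the Quad and QuadD points of Vha68-2 and Vha100-2 lie left of their own controls.

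Most widely expressed subunit genes were lower in both misexpression groups than in the matching controls, but few passed the test in Quad. The test was limma's moderated test on log2(RPKM + 1) over all genes that reached 1 RPKM in 2 or more libraries, with Benjamini-Hochberg adjusted p under 0.05. It covered 24 subunit genes in each comparison, the 19 widely expressed ones and 5 low ones, and all changes below are log2 differences on that scale with standard errors. In Quad against Ctrl, 4 of the 24 fell (Vha100-2, Vha68-2, Vha55 and the low paralog Vha100-4), where 22.6% of the 10436 genes tested fell. VhaM9.7-a was the 1 that rose, where 24.9% of all genes rose. In either direction, 5 of the 24 were called, where 47.5% of all genes were. The median change of the 24 was -0.21, against 0.053 over all genes. Of the 24, 20 were below 0, where 4865 of the 10436 genes tested were. The median change was -0.20 over the 19 widely expressed genes. Over all tested subunit genes it was -0.32 without Quad replicate 1, and -0.16 without Quad replicate 2 or without Ctrl replicate 2. Both Quad libraries lay below both Ctrl libraries in 14 of the 24 genes, where 35.6% of all genes did so, and above them in 3, where 41.5% did. The count of 5 calls depended on which single library was left out, and so did the count over all genes.

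In QuadD against Ctrl-D, 8 of the 24 fell, where 27.7% of the 10207 genes tested fell. They were Vha68-2, Vha100-2, Vha36-1, Vha13, VhaAC39-1, Vha55, VhaM9.7-c and VhaPPA1-1. The 2 that rose were Vha68-1 and VhaM9.7-a, where 27.4% of all genes rose, and 55.0% changed in either direction. In either direction, 10 of the 24 subunit genes changed. The median change of the 24 was -0.20, against 0.034 over all genes. Of the 24, 17 were below 0, where 4883 of the 10207 genes tested were. The median change was -0.31 over the 19 widely expressed genes. Over all tested subunit genes it was -0.37 without Ctrl-D replicate 1 and -0.16 without Ctrl-D replicate 2. QuadD lay below Ctrl-D in all libraries for 15 genes, where 39.1% of all genes did so, and above in 4, where 42.2% did. The count of 10 calls likewise depended on which single library was left out, as did the count over all genes. Vha100-2, Vha68-2 and Vha55 fell, and VhaM9.7-a rose, in both comparisons, which use separate controls. The share of all genes called in the same direction in both was not counted, so these shared calls have no background to set them against. In whole embryos, fewer cells of a type and less RNA per cell cannot be told apart.

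**Figure D2:**
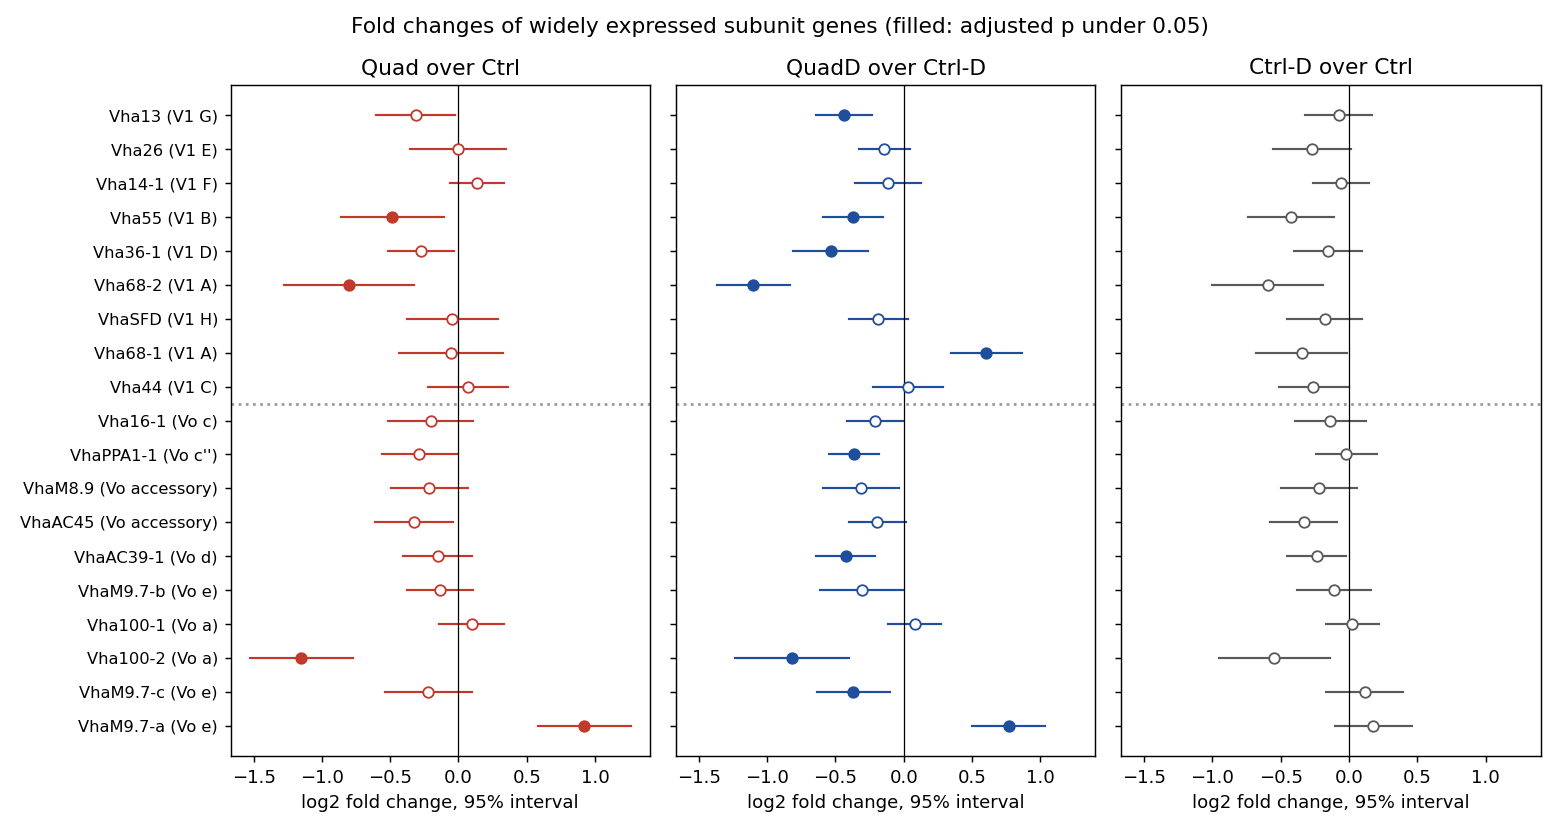
Log2 fold change of the 19 widely expressed subunit genes in Quad over Ctrl, QuadD over Ctrl-D and Ctrl-D over Ctrl on the log2(RPKM + 1) scale, V1 above and Vo below the dotted line, with 95% confidence intervals and filled points where the adjusted p was under 0.05. Vha68-2 and Vha100-2 lie farthest below 0 and VhaM9.7-a farthest above it in both misexpression groups, and no point is filled between the controls.

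In the V1 sector the largest change of a single gene was in Vha68-2, which encodes the catalytic subunit A, the part that hydrolyses ATP. Vha68-2 had 92.1 and 60.8 RPKM in Quad, against 123 and 141 RPKM in Ctrl. It had 39.6 and 40.2 RPKM in QuadD, against 79.3 and 94.9 RPKM in Ctrl-D. All misexpression libraries lay below their own controls, and the 2 QuadD libraries nearly coincided while the Quad libraries were spread. The change was -0.80 ± 0.20 in Quad (adjusted p = 0.0175) and -1.10 ± 0.11 in QuadD (adjusted p = 0.000682). Leaving out single libraries moved the Quad value between -1.10 and -0.51 with the call kept, the smaller without Quad replicate 2, and with no filter on low values it was lost (adjusted p = 0.167).

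The second gene for subunit A, Vha68-1, did not follow its paralog. It had 72.6 and 53.2 RPKM in Quad, against 63.2 and 66.1 RPKM in Ctrl. It had 74.2 and 80.7 RPKM in QuadD, against 47.0 and 54.4 RPKM in Ctrl-D. The Quad libraries lay on both sides of Ctrl, while both QuadD libraries lay above both Ctrl-D libraries. Vha68-1 rose by 0.60 ± 0.11 in QuadD (adjusted p = 0.00496), a call lost with no filter on low values (adjusted p = 0.0628). In Quad its change was -0.055 ± 0.16 with a 95% confidence interval of -0.44 to 0.33.

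Vha68-1, Vha68-2 and the nearly silent Vha68-3 lie close together on chromosome arm 2L in the reference annotation. Vha68-2 and Vha68-3 adjoin, and 1 protein-coding gene lies between Vha68-3 and Vha68-1. How reads shared by such copies were assigned is not given in the sources used here. With that limit, the ratio of Vha68-2 to Vha68-1 was 1.27 and 1.14 in Quad, against 1.95 and 2.13 in Ctrl. It was 0.534 and 0.498 in QuadD, against 1.69 and 1.74 in Ctrl-D. Vha68-2 was thus the more abundant paralog in every library except those of QuadD, in which Vha68-1 was. The summed RPKM of subunit A was 165 and 114 in Quad, against 186 and 207 in Ctrl. In QuadD it was 114 and 121, against 126 and 149 in Ctrl-D, below both controls in each experiment.

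Subunit B, which alternates with A in the V1 head and binds nucleotide without splitting it, comes from Vha55 alone. Vha55 had 120.4 and 90.9 RPKM in Quad, against 136 and 158 RPKM in Ctrl. It had 82.0 and 86.1 RPKM in QuadD, against 104 and 115 RPKM in Ctrl-D. Groups did not overlap in either experiment, and both Ctrl-D libraries also lay below both Ctrl libraries. The changes were -0.48 ± 0.15 (adjusted p = 0.0432) and -0.37 ± 0.090 (adjusted p = 0.0150). The Quad call was lost without Quad replicate 2 (-0.28, adjusted p = 0.0933) and without Ctrl replicate 2 (-0.37, adjusted p = 0.190), and the QuadD call without either QuadD library (adjusted p = 0.118 and 0.0772). With no filter on low values both calls were lost (adjusted p = 0.226 and 0.0724).

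Of the shaft and stalk subunits, Vha36-1 and Vha13 fell in QuadD. Vha36-1, subunit D of the rotating shaft, had 85.2 and 76.8 RPKM in QuadD, against 108 and 128 RPKM in Ctrl-D (-0.53 ± 0.11, adjusted p = 0.00944). Vha13 had 201 and 196 RPKM in QuadD, against 258 and 282 RPKM in Ctrl-D (-0.44 ± 0.084, adjusted p = 0.00658). Both genes were also below Ctrl in both Quad libraries without passing the test there. Vha36-1 had 115 and 102 RPKM in Quad, against 131 and 131 RPKM in Ctrl (-0.27, adjusted p = 0.0629). Vha13 had 249 and 209 RPKM in Quad, against 267 and 302 RPKM in Ctrl (-0.31, adjusted p = 0.0725). Both genes passed in Quad when Quad replicate 1 was left out (adjusted p = 0.0166 for Vha36-1 and 0.0170 for Vha13). The QuadD call of Vha36-1 was lost without QuadD replicate 2 (adjusted p = 0.0695) and with no filter on low values (adjusted p = 0.0975). The QuadD call of Vha13 was lost without QuadD replicate 1 (adjusted p = 0.0527) and without replicate 2 (adjusted p = 0.0751).

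The other 4 widely expressed V1 genes passed the test in neither comparison. For Vha26 the change was -0.0063 in Quad (95% confidence interval -0.36 to 0.35) and -0.14 in QuadD (-0.33 to 0.045). For Vha14-1 it was 0.14 in Quad (-0.062 to 0.34) and -0.11 in QuadD (-0.35 to 0.13). For Vha44 it was 0.068 in Quad (-0.23 to 0.36) and 0.033 in QuadD (-0.22 to 0.29). VhaSFD encodes subunit H, which holds back ATP splitting when V1 is detached, and changed by -0.046 in Quad (-0.38 to 0.29) and -0.18 in QuadD (-0.40 to 0.034). The intervals of these 4 genes exclude the estimated change of Vha68-2 in each comparison (-0.80 in Quad and -1.10 in QuadD). The Quad interval of Vha68-2 itself, -1.28 to -0.33, overlaps those of Vha26 and VhaSFD. No test compared these genes with each other.

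In the Vo sector the largest change of a single gene was in Vha100-2, which encodes subunit a. That subunit is the large membrane protein that carries protons to and from the ring and directs the pump to particular membranes. Summed over its genes, subunit a was at 0.780 of Ctrl in Quad and 0.890 of Ctrl-D in QuadD. Vha100-2 had 32.0 and 24.4 RPKM in Quad, against 59.8 and 67.2 RPKM in Ctrl. It had 26.5 and 21.7 RPKM in QuadD, against 37.2 and 49.9 RPKM in Ctrl-D. Groups did not overlap in either experiment, and the Ctrl-D libraries also lay below the Ctrl libraries. The changes were -1.15 ± 0.16 (adjusted p = 0.00215) and -0.82 ± 0.17 (adjusted p = 0.00904). Both calls held when any single library was left out and missed the threshold with no filter on low values (adjusted p = 0.0558 and 0.115).

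Vha100-1, the a subunit known for its role at fly synapses, stayed close to its controls. It had 94.9 and 85.4 RPKM in Quad, against 83.4 and 84.9 RPKM in Ctrl. It had 88.4 and 92.9 RPKM in QuadD, against 85.6 and 85.8 RPKM in Ctrl-D. Both misexpression groups lay slightly above their controls. The changes were 0.10 (95% confidence interval -0.14 to 0.33) and 0.080 (-0.12 to 0.27), and neither passed the test. In the reference annotation, exons of Vha100-1 overlap those of Alg13 on the opposite strand, and those of Vha44 overlap Hmgs. Reads of such pairs cannot be separated unless strand was used, which is not given in the sources used here.

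The small membrane subunit e, whose function in the pump is not settled, had 3 widely expressed genes that differed in direction. VhaM9.7-a had 41.6 and 36.7 RPKM in Quad, against 18.7 and 21.7 RPKM in Ctrl. It had 37.4 and 42.4 RPKM in QuadD, against 23.3 and 22.6 RPKM in Ctrl-D. Every misexpression library lay above every control library of either experiment. The gene rose by 0.92 ± 0.14 in Quad (adjusted p = 0.00328) and 0.77 ± 0.11 in QuadD (adjusted p = 0.00233), and both calls held under all 12 alternatives run on them.

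VhaM9.7-c had 41.5 and 41.2 RPKM in QuadD, against 49.3 and 58.4 RPKM in Ctrl-D (-0.37 ± 0.11, adjusted p = 0.0305). It had 38.6 and 46.5 RPKM in Quad, against 47.3 and 51.7 RPKM in Ctrl (-0.22, adjusted p = 0.208). The QuadD call was lost when QuadD replicate 1, QuadD replicate 2 or Ctrl-D replicate 2 was left out (adjusted p = 0.121, 0.141 and 0.0762), with no filter on low values (adjusted p = 0.127) and with voom on its whole counts (adjusted p = 0.120). In Quad it passed without Quad replicate 2 (adjusted p = 0.0421). VhaM9.7-b, the most abundant of the e genes, passed in neither comparison, with -0.14 in Quad (-0.38 to 0.11) and -0.31 in QuadD (-0.62 to 0.0012), where it passed without Ctrl-D replicate 1 (adjusted p = 0.0102).

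Of the ring and its collar, VhaPPA1-1 and VhaAC39-1 fell in QuadD. VhaPPA1-1 encodes c'', a second ring protein, and had 112 and 114 RPKM in QuadD, against 146 and 146 RPKM in Ctrl-D (-0.37 ± 0.075, adjusted p = 0.00864). VhaAC39-1 encodes d, which couples the shaft to the ring, and had 66.7 and 66.1 RPKM in QuadD, against 85.3 and 93.9 RPKM in Ctrl-D (-0.42 ± 0.088, adjusted p = 0.00881). Both QuadD libraries of each gene lay below both Ctrl-D libraries, and both calls were lost without QuadD replicate 1 (adjusted p = 0.0931 for VhaPPA1-1 and 0.0613 for VhaAC39-1) and without replicate 2 (adjusted p = 0.0821 and 0.0719). In Quad, VhaPPA1-1 was at -0.29 (95% confidence interval -0.56 to -0.011) and VhaAC39-1 at -0.15 (-0.40 to 0.10), neither called, although VhaPPA1-1 passed without Quad replicate 1 (adjusted p = 0.0437). The main ring gene Vha16-1 had 492 and 391 RPKM in Quad, against 489 and 521 RPKM in Ctrl (-0.20, adjusted p = 0.232). It had 384 and 408 RPKM in QuadD, against 448 and 471 RPKM in Ctrl-D (-0.21, adjusted p = 0.0723). Its most abundant Quad library lay between the 2 Ctrl libraries, while QuadD and Ctrl-D did not overlap. It passed in Quad without Quad replicate 1 (adjusted p = 0.0244) and in QuadD without Ctrl-D replicate 1 (adjusted p = 0.0367).

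The accessory proteins VhaAC45 and VhaM8.9 (current symbol ATP6AP2) help assemble and sort the pump, and passed in neither comparison. VhaAC45 changed by -0.33 in Quad (95% confidence interval -0.61 to -0.041) and -0.19 in QuadD (-0.40 to 0.020). VhaM8.9 changed by -0.21 in Quad (-0.50 to 0.070) and -0.31 in QuadD (-0.59 to -0.032). In Quad both passed without Quad replicate 1 (adjusted p = 0.0120 for VhaAC45 and 0.0199 for VhaM8.9). In QuadD, VhaAC45 passed without Ctrl-D replicate 2 (adjusted p = 0.0414) and VhaM8.9 without Ctrl-D replicate 1 (adjusted p = 0.0164). CG31030, whose current symbol is VhaAC45RP and which therefore lies outside the 33 genes, was looked at after its values were seen. It had 50.5 and 61.0 RPKM in QuadD, against 23.3 and 24.4 RPKM in Ctrl-D, and rose by 1.19 ± 0.12 (adjusted p = 0.000721). In Quad it had 49.6 and 32.4 RPKM, against 30.1 and 31.3 RPKM in Ctrl (0.38, adjusted p = 0.171). The QuadD libraries were apart from Ctrl-D, and the lower Quad library was close to Ctrl. Without that library, Quad replicate 2, the gene was at 0.68 in Quad (adjusted p = 0.00427).

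As a share of each subunit's summed RPKM, 3 subunits had more than 1 substantial paralog, and in each the make-up differed between misexpression and control libraries. For subunit A, Vha68-1 held 44.1% and 46.6% in Quad, against 33.9% and 32.0% in Ctrl. It held 65.2% and 66.7% in QuadD, against 37.2% and 36.5% in Ctrl-D. The Vha68-1 share did not overlap between groups in either experiment. For subunit a, Vha100-1 held 72.3% and 76.5% in Quad, against 55.9% and 52.4% in Ctrl. In QuadD it held 74.8% and 78.4%, against 67.8% and 61.4% in Ctrl-D. Here too the groups did not overlap, although the 2 control groups were apart from each other. For subunit e, VhaM9.7-a held 23.8% and 21.9% in Quad, against 11.5% and 12.6% in Ctrl. It held 24.0% and 27.5% in QuadD, against 15.1% and 12.3% in Ctrl-D, again without overlap. No test was made on these shares. In the other paralog families 1 gene held at least 95.6% in every library, namely Vha16-1, Vha14-1, Vha36-1, VhaAC39-1 or VhaPPA1-1.

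**Figure D3:**
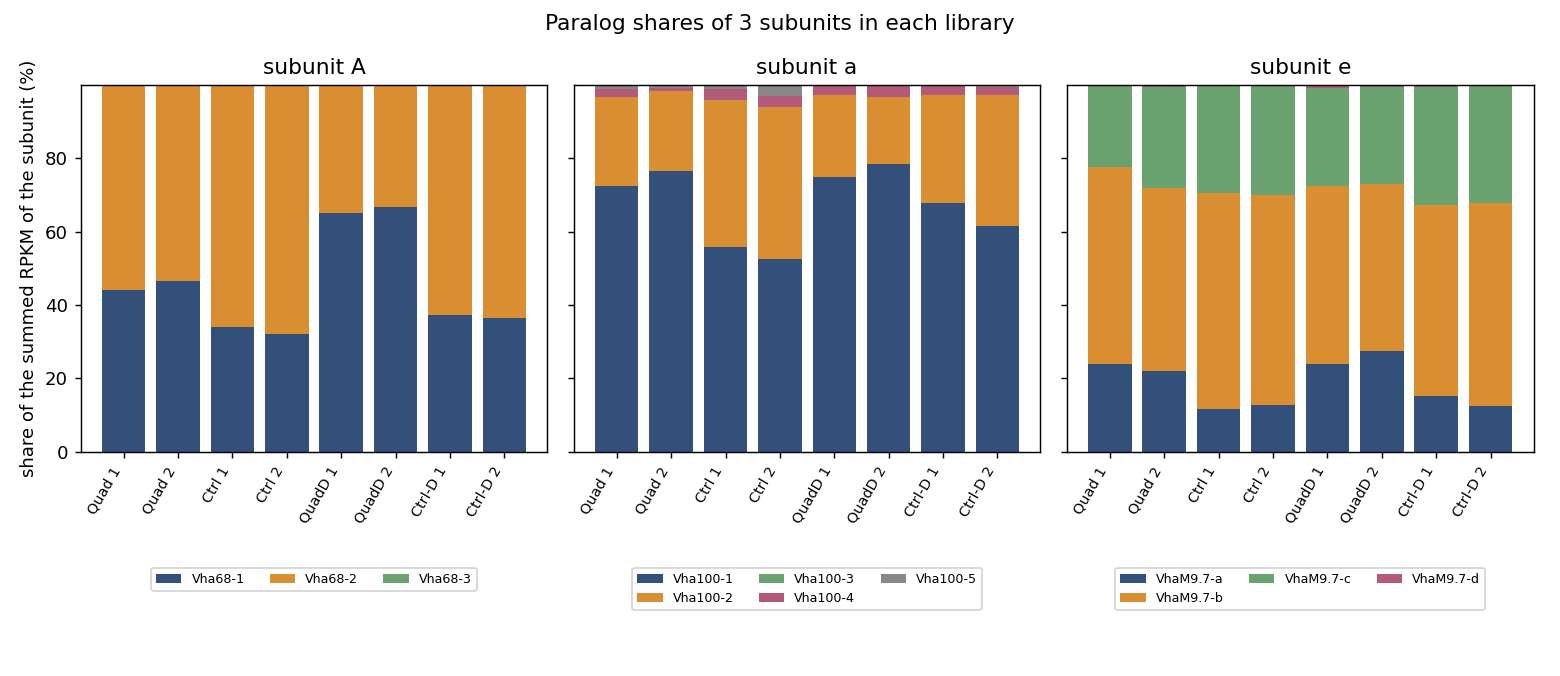
Share of the summed RPKM of subunits A, a and e held by each paralog, with 1 stacked bar per library and shares in percent. Vha68-1 takes the larger share of subunit A only in the 2 QuadD libraries, and the shares of Vha100-1 and VhaM9.7-a are larger in Quad and QuadD than in their controls.

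The 14 low or tissue-limited paralogs gave little signal in any group. Of them, 7 stayed under 1 RPKM in every library and 8 were tested in neither comparison; the deposited values have a floor of 0.002 RPKM (Quad and Ctrl) or 0.003 RPKM (QuadD and Ctrl-D). Vha100-3, Vha68-3, Vha36-2 and Vha16-2 were at or near that floor in most libraries. Vha100-4, an a subunit known from acid-secreting cells of the fly midgut, passed the test. It had 2.64 and 0.907 RPKM in Quad, against 4.41 and 4.73 RPKM in Ctrl (-1.08 ± 0.33, adjusted p = 0.0359). In QuadD it had 3.24 and 3.86 RPKM, against 3.02 and 3.39 RPKM in Ctrl-D (0.11, adjusted p = 0.618). Both Quad libraries lay below Ctrl, most of all replicate 2, and QuadD overlapped with Ctrl-D. The Quad call was lost without Quad replicate 2 (-0.61, adjusted p = 0.0556), without Ctrl replicate 1 (adjusted p = 0.0912) and without Ctrl replicate 2 (adjusted p = 0.123), and it missed the threshold with no filter (adjusted p = 0.210) and after quantile normalization (adjusted p = 0.0514). Its gene adjoins Vha100-2 in the reference annotation, and its exons overlap those of cona on the opposite strand.

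Other low paralogs were measured without being called. Vha36-3, a subunit D paralog, had 3.46 and 1.85 RPKM in Quad, against 4.42 and 6.02 RPKM in Ctrl (-0.79, adjusted p = 0.0596), and 2.07 and 1.78 RPKM in QuadD, against 1.09 and 3.18 RPKM in Ctrl-D (-0.019). Vha100-5 had 1.58 and 0.852 RPKM in Quad, against 1.68 and 5.05 RPKM in Ctrl (-0.88, adjusted p = 0.121), and was under 1 RPKM in all libraries of the second experiment. In Vha100-5 a single library, Ctrl replicate 2, stood apart. Without Quad replicate 1 Vha36-3 passed in Quad (adjusted p = 0.0113), and without Ctrl replicate 1 Vha100-5 did (adjusted p = 0.0222). VhaPPA1-2 changed by -0.038 in Quad and -0.62 in QuadD (adjusted p = 0.0675, and 0.0458 without Ctrl-D replicate 1), Vha16-5 by -0.015 and 0.49 (adjusted p = 0.0921), and VhaM9.7-d by 0.28 in QuadD. The ring paralog Vha16-3 had 0.668 and 1.27 RPKM in Quad, against 0.0930 and 0.0960 RPKM in Ctrl, and 0.793 and 0.932 RPKM in QuadD, against 0.382 and 0.200 RPKM in Ctrl-D. It lay above the controls in every misexpression library but was too low to be tested. Several fly V-ATPase paralogs are known from the testis. Of 11 male germ line markers, 9 stayed under 1 RPKM in every library, Mst84Da, Mst84Db and Mst35Ba among them. Of the rest, twe rose and bol fell in both comparisons. In QuadD twe had 3.25 and 8.75 RPKM, against 1.07 and 0.074 RPKM in Ctrl-D. The QuadD libraries alone took twe past the filter there, as Ctrl-D reached 1 RPKM in replicate 1 only. Its QuadD call held in 9 of 11 alternatives.

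**Figure D4:**
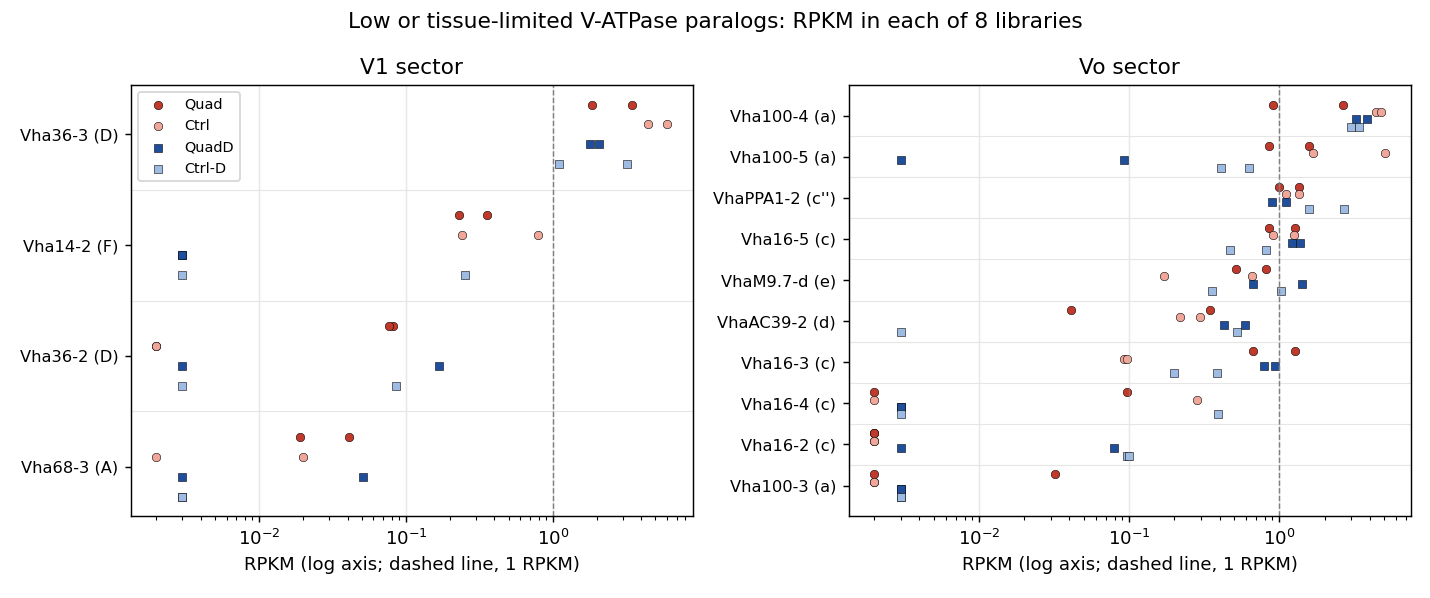
RPKM of the 14 low or tissue-limited V-ATPase genes in each of the 8 libraries on a log axis, with 1 point per library coloured by group. Most points lie under 1 RPKM, and Vha100-4 and Vha36-3 have the highest means in the controls.

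Summed over genes, subunit RNA was lower in both misexpression groups. All 33 genes together had 2434 and 2031 RPKM in Quad, against 2468 and 2676 RPKM in Ctrl. They had 1878 and 1901 RPKM in QuadD, against 2158 and 2364 RPKM in Ctrl-D. Neither experiment had overlapping groups, though Quad replicate 1 came close to Ctrl replicate 1. Between the driver-only groups, both Ctrl-D sums also lay below both Ctrl sums. The V1 sum was 0.866 of its control in Quad and 0.819 in QuadD, and the Vo sum 0.870 and 0.850. By subunit, the ratio of Quad to Ctrl ran from 0.709 for A to 1.10 for F, and that of QuadD to Ctrl-D from 0.690 for D to 1.02 for C. The ratios thus differed from subunit to subunit. No test was made on sums.

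The difference between both effects, QuadD against Ctrl-D minus Quad against Ctrl, was tested in a fit of all 8 libraries. None of 25 subunit genes passed in limma's test, where 2.70% of the 10775 genes tested did, and 2 had an unadjusted p under 0.05. Those were Vha68-1 (0.66 ± 0.21, adjusted p = 0.155) and Vha100-4 (1.19 ± 0.41, adjusted p = 0.187). Both passed without Quad replicate 1 (0.88 and 1.66). With voom on genes with whole counts none passed either. For Vha68-2 the difference was -0.30 (95% confidence interval -0.87 to 0.28), for Vha100-2 0.33 (-0.25 to 0.91) and for VhaM9.7-a -0.15 (-0.55 to 0.25). The rise of Vha68-1 in QuadD is therefore not shown to differ from its change in Quad.

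The 2 driver-only groups, which share a genotype, give the background between the experiments, in which collection and sequencing lane cannot be told apart. In Ctrl-D against Ctrl, none of 25 subunit genes passed in limma's test, where 1.23% of all genes did, and 9 had an unadjusted p under 0.05. Voom on genes with whole counts called none. The median subunit change was -0.22, against 0.0096 over all genes. Of the 25, 20 were below 0, where 5240 of the 10775 genes tested were. Over the 25 subunit genes the median difference between the controls was about as large as the median change of the 24 in Quad or QuadD. Over the 19 widely expressed genes it was -0.18, where the median change was -0.20 in Quad and -0.31 in QuadD. Both Ctrl-D libraries lay below both Ctrl libraries in 16 of the 25 subunit genes, where 3154 of the 10775 genes tested did so. They lay above in 3, where 3361 of all genes did. The matching counts of lower genes were 14 of 24 in Quad and 15 of 24 in QuadD. Vha68-2 differed by -0.60 ± 0.18 (adjusted p = 0.0995), Vha100-2 by -0.55 ± 0.18 (adjusted p = 0.114) and VhaM9.7-a by 0.18 ± 0.12 (adjusted p = 0.384). Vha55 differed by -0.42 ± 0.14 (adjusted p = 0.112), about as much as in Quad (-0.48) and QuadD (-0.37). Counts here rose to 2 (Vha55 and Vha68-2) without either Quad library and to 1 (Vha100-5) without Ctrl replicate 1.

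Of 4 measured genes that assemble or regulate the pump, 2 fell in Quad and 1 in QuadD, where 22.6% and 27.7% of all genes fell. The gene mtd (mustard, of the TLDc family, whose mammalian relatives bind the pump) fell in both comparisons, -0.47 in Quad and -0.25 in QuadD (adjusted p = 0.0258 and 0.0379). Mitf, the factor that switches on V-ATPase and lysosome genes in flies, had 8.60 and 5.04 RPKM in Quad, against 13.8 and 13.0 RPKM in Ctrl, and fell by 0.92 ± 0.25 on the log2 scale (adjusted p = 0.0262). In QuadD it had 3.13 and 5.03 RPKM, against 7.81 and 5.95 RPKM in Ctrl-D (-0.65, adjusted p = 0.0608). Groups of Mitf did not overlap in either experiment. Rbcn-3A and Rbcn-3B, parts of the complex that reassembles V1 with Vo, were at -0.35 and -0.13 in Quad and -0.14 and -0.074 in QuadD, none called.

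Leaving out single libraries ended these calls. The Quad call of Mitf was lost without Ctrl replicate 1 (adjusted p = 0.0959) and without Ctrl replicate 2 (adjusted p = 0.0741), its change was -0.58 without Quad replicate 2, and in QuadD it passed without QuadD replicate 2 (adjusted p = 0.0351). The call of mtd was lost in Quad without either Ctrl library (adjusted p = 0.122 and 0.0755). In QuadD it was lost without QuadD replicate 1, QuadD replicate 2 or Ctrl-D replicate 2 (adjusted p = 0.198, 0.227 and 0.0652). In Ctrl-D against Ctrl all 4 genes were below 0 as well (median -0.32), with Mitf at -0.88 (adjusted p = 0.102) and mtd at -0.38 (adjusted p = 0.0966).

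Of 33 lysosome and endosome genes, which share the compartment of the pump, 6 rose and 3 fell in Quad (median 0.22), where 24.9% and 22.6% of all genes did. In QuadD 7 rose and 7 fell (median 0.038), where 27.4% and 27.7% did. CG8596, the fly Cln7 relative of a lysosomal membrane transporter, fell in both (-1.29 ± 0.10 in Quad and -1.94 ± 0.16 in QuadD), as did Hexo1, a hexosaminidase (-1.55 ± 0.16 and -1.54 ± 0.17), and Snx1, a sorting nexin (-0.76 ± 0.17 and -0.93 ± 0.18). The gene car, for a subunit of a tethering complex that feeds lysosomes, rose in both (0.43 ± 0.12 in Quad and 0.78 ± 0.10 in QuadD). Its partner gene dor rose by 0.54 ± 0.11 in QuadD and was at 0.30 in Quad (adjusted p = 0.0573). The hexosaminidase gene Hexo2 rose by 0.64 ± 0.19 in Quad and was lower in QuadD (-1.33 ± 0.16).

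In Quad, Npc2a, a sterol carrier, rose by 1.40 ± 0.22, cathD, a lysosomal protease, by 0.53 ± 0.12 and Vps26, of the retromer coat, by 0.48 ± 0.093. In QuadD they were at -0.20, 0.038 and 0.30, not called. The sorting receptor gene Lerp rose by 0.88 ± 0.19 in QuadD and was at 0.28 in Quad, not called. Calls of CG8596 and Hexo1 held under every alternative run. The Quad calls of car and Vps26 were lost without either Ctrl library (adjusted p = 0.140 and 0.235 for car, and 0.0661 and 0.0793 for Vps26). Without Ctrl replicate 1 the Quad call of cathD was lost (adjusted p = 0.0752), and without Ctrl replicate 2 that of Snx1 (adjusted p = 0.0523). The Quad call of Hexo2 was lost without Quad replicate 1 or either Ctrl library (adjusted p = 0.0562, 0.148 and 0.0634). In QuadD, dor was lost without QuadD replicate 1 (adjusted p = 0.0536) and Lerp without QuadD replicate 2 (adjusted p = 0.0695), while Vps26 passed without Ctrl-D replicate 1 (adjusted p = 0.00920) and Lerp passed in Quad without Quad replicate 2 (adjusted p = 0.0392).

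Of 17 genes of the TORC1 branch at the lysosome, 1 rose and 2 fell in Quad (median 0.18), where 24.9% and 22.6% of all genes did. In QuadD 3 rose and 2 fell (median 0.059), where 27.4% and 27.7% did. Sesn, an inhibitor of TORC1 under amino acid shortage, fell in both (-1.05 ± 0.14 in Quad and -0.98 ± 0.091 in QuadD), and both calls held when any single library was left out. The GTPase gene RagC-D also fell in both (-0.46 ± 0.12 and -0.33 ± 0.11), and Nup44A, of the GATOR2 complex, rose in both (0.59 ± 0.17 and 0.61 ± 0.13). Iml1 and Wdr24, of GATOR1 and GATOR2, rose in QuadD (0.36 ± 0.10 and 0.34 ± 0.11) and were at 0.27 and 0.47 in Quad (adjusted p = 0.185 and 0.0556).

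The smaller of these changes missed the threshold when single libraries were left out. The QuadD calls of RagC-D, Iml1 and Wdr24 were each lost without QuadD replicate 1 (adjusted p = 0.172, 0.125 and 0.221), without QuadD replicate 2 (adjusted p = 0.152, 0.174 and 0.153) and without Ctrl-D replicate 2 (adjusted p = 0.103, 0.0681 and 0.111). The Wdr24 call held in 5 of 12 alternatives and the Iml1 call in 7 of 12. In Quad, RagC-D was lost without either Ctrl library (adjusted p = 0.143 and 0.120). Nup44A was lost in Quad without Quad replicate 2 (0.36, adjusted p = 0.0520), Ctrl replicate 1 (adjusted p = 0.126) or Ctrl replicate 2 (adjusted p = 0.0508), and in QuadD without QuadD replicate 2 (adjusted p = 0.0575). Wdr24 passed in Quad without Quad replicate 1 (adjusted p = 0.00932).

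The mitochondrial ATP synthase, a related rotary enzyme that works in the opposite direction, had 4 of 14 tested genes lower in Quad (median -0.25), where 22.6% of all genes fell, and 10 of 14 lower in QuadD (median -0.42), where 27.7% fell, with none higher in either. Its alpha subunit gene blw fell by 0.64 ± 0.12 in Quad and by 0.56 ± 0.077 in QuadD (log2), and both calls held when any single library was left out. ATPsyngamma (-0.46 ± 0.12 in Quad and -0.47 ± 0.12 in QuadD) and ATPsynC (-0.41 ± 0.11 and -0.46 ± 0.11) also fell in both. The genes sun and ATPsynCF6 fell in QuadD (-0.62 ± 0.12 and -0.54 ± 0.11) and were at -0.31 and -0.28 in Quad (adjusted p = 0.0614 and 0.0788). In Quad, the calls of ATPsyngamma and ATPsynC were lost without Quad replicate 2 (adjusted p = 0.0523 and 0.0530) and without Ctrl replicate 2 (adjusted p = 0.153 and 0.182). In QuadD both were lost without QuadD replicate 2 (adjusted p = 0.123 and 0.136), and ATPsynC and ATPsynCF6 without QuadD replicate 1 (adjusted p = 0.0702 and 0.0691).

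Of the epithelial ion transport genes, 3 of 20 rose and 6 fell in Quad (median -0.25), where 24.9% and 22.6% of all genes did, and 5 of 19 rose and 5 fell in QuadD (median -0.11), where 27.4% and 27.7% did. Among these counts is the chloride channel gene ClC-a, which had 3.60 and 4.77 RPKM in Quad, against 0.722 and 0.866 RPKM in Ctrl, and 4.80 and 4.76 RPKM in QuadD, against 0.456 and 0.515 RPKM in Ctrl-D. It reached 1 RPKM only in the misexpression libraries, so it had to differ to be tested. The potassium channel gene Irk1 had 0.201 and 0.262 RPKM in QuadD, against 3.88 and 3.94 RPKM in Ctrl-D, and entered that test through Ctrl-D alone. In Quad it had 1.74 and 1.05 RPKM, against 3.40 and 2.64 RPKM in Ctrl (-0.76 ± 0.24, adjusted p = 0.0408), a call lost without Quad replicate 2, Ctrl replicate 1 or Ctrl replicate 2 (adjusted p = 0.118, 0.277 and 0.137).

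The sodium pump beta subunit gene nrv1 fell in both comparisons (-1.06 ± 0.19 in Quad and -1.84 ± 0.17 in QuadD), with both calls held when any single library was left out. The exchanger gene Nhe2 (0.38 ± 0.12 and 0.74 ± 0.10) and nrv2, for another sodium pump beta subunit (0.39 ± 0.11 and 0.40 ± 0.087), rose in both. The carbonic anhydrase gene CAH2 fell in Quad (-1.38 ± 0.27), as did the aquaporin gene Drip (mean 1.15 RPKM, against 3.29 RPKM in Ctrl), and in QuadD they were not called (adjusted p = 0.108 and 0.273). Both differed nearly as much between the driver-only groups. In Ctrl-D against Ctrl, CAH2 was at -1.27 ± 0.25 (adjusted p = 0.0509) and Drip at -0.96 ± 0.30 (adjusted p = 0.105). In QuadD nrv3 rose (1.16 ± 0.15) and Ndae1, for a bicarbonate transporter, fell (-0.86 ± 0.16), and in Quad they were not called (adjusted p = 0.0999 and 0.810). The Quad calls of Nhe2 and nrv2 were lost without Quad replicate 1 (adjusted p = 0.0677 and 0.0511), Ctrl replicate 1 (adjusted p = 0.133 and 0.101) or Ctrl replicate 2 (adjusted p = 0.324 and 0.111). That of CAH2 was lost without Ctrl replicate 2 (adjusted p = 0.0501), and that of Drip without Quad replicate 2, Ctrl replicate 1 or Ctrl replicate 2 (adjusted p = 0.0646, 0.0529 and 0.198). In QuadD nrv2 was lost without either QuadD library (adjusted p = 0.131 and 0.0544), and in Quad nrv3 passed without Quad replicate 2 (adjusted p = 0.00171).

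**Figure D5:**
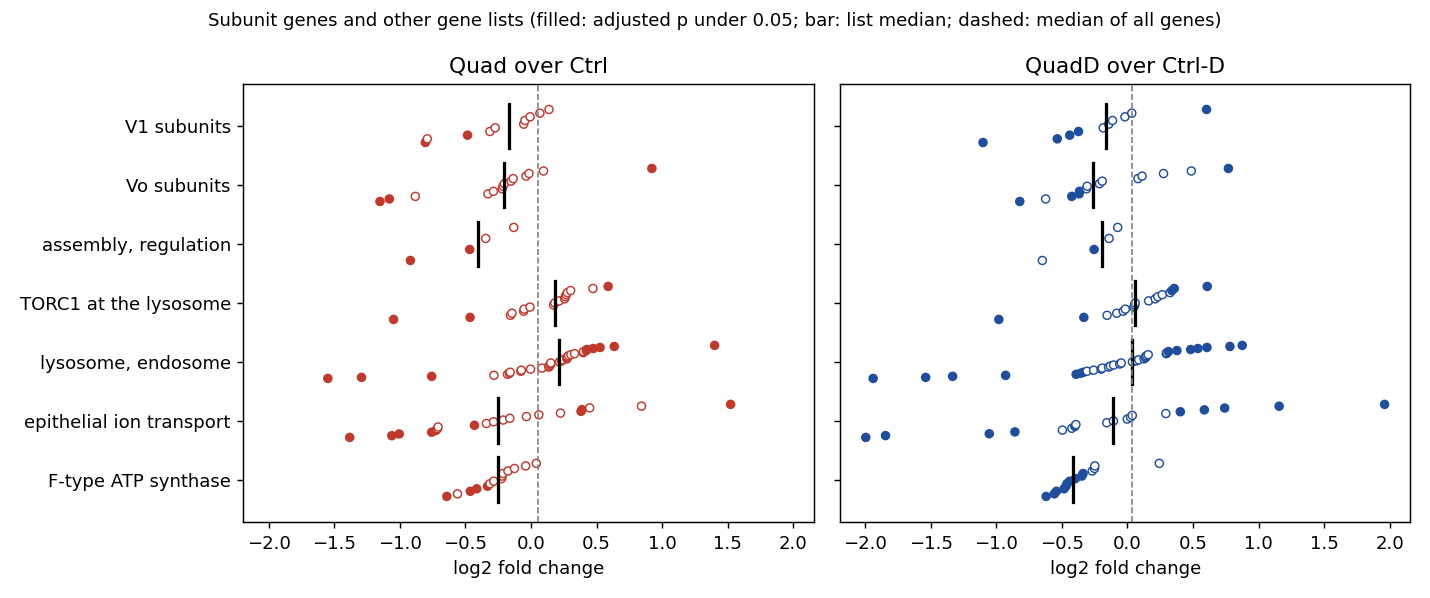
Log2 fold change of each tested gene of the V1 and Vo sectors and of 5 other gene lists in Quad over Ctrl and QuadD over Ctrl-D, with 1 point per gene, filled where the adjusted p was under 0.05, a black bar at the list median and a dashed line at the median of all genes. Subunit and ATP synthase medians lie left of the dashed line in both panels, and the lysosome and endosome genes spread to both sides.

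Markers of several embryonic tissues also differed between misexpression and control libraries, some lower and others higher. Their part in the subunit results was not tested. Of all genes, as given above, 24.9% rose and 22.6% fell in Quad, and 27.4% rose and 27.7% fell in QuadD. All 13 epidermis markers fell in both comparisons, and their summed level was 136 and 115 RPKM in Quad, against 1594 and 2155 RPKM in Ctrl, and 59.2 and 47.3 RPKM in QuadD, against 1063 and 1350.4 RPKM in Ctrl-D. All 9 trachea and salivary gland markers fell in both (medians -1.64 and -1.77). Of 11 gut and tubule markers, 9 fell and 1 rose in Quad, and 8 fell and 1 rose in QuadD, with sums of 263 and 275 RPKM in Quad, against 438 and 453 RPKM in Ctrl, and 269 and 245 RPKM in QuadD, against 413 and 401 RPKM in Ctrl-D. Tubule and gut epithelia are known for high V-ATPase expression in flies.

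Neuroblast, glia and, in QuadD, neuron markers mostly rose. Of 11 neuron markers tested, 3 rose in Quad, near the 24.9% of all genes, and 10 in QuadD, none fell, and their sums were 821 and 583 RPKM in Quad, against 436 and 409.7 RPKM in Ctrl, and 836 and 877 RPKM in QuadD, against 408 and 402 RPKM in Ctrl-D. Of 9 neuroblast markers, 7 rose and 1 fell in each comparison, and of 7 glia markers 6 rose in Quad, and 4 rose and 1 fell in QuadD. Of 7 hemocyte and fat body markers tested, 6 fell and 1 rose in Quad and 6 fell in QuadD. Of 10 muscle markers, 3 fell in Quad, where 22.6% of all genes did, and 10 in QuadD. Their sums were 2193 and 1118 RPKM in the Quad libraries, against 1884 and 2662 RPKM in Ctrl. The muscle sum was lower in Quad replicate 2 than in replicate 1. So were the sums of neuron, glia, epidermis, and hemocyte and fat body markers. The sums of gut and tubule markers and of trachea and salivary gland markers were higher in Quad replicate 2. In QuadD the muscle sums were 731 and 647 RPKM, against 1157 and 1345 RPKM in Ctrl-D.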

How the data were processed

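Per the labels' protocols, RNA of whole embryos was read singly over 50 bp, and each experiment had a lane of its own. The authors deposited 1 table per experiment with total RPKM per gene and library on a linear scale and, per the file headers, the log2 of those RPKM values. No coordinates are printed, because the genome build is not given in the sources used here; the same holds for aligner, counter and strand setting. The deposited raw count columns hold part of the reads for many genes (13 subunit genes of at least 10 RPKM have a count of 0 in all 8 libraries), so RPKM was tested instead. Depth was compared over 5067 genes whose counts are proportional to RPKM within 1% or rounding.

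Here, RPKM was used as log2(RPKM + 1), for genes that reached 1 RPKM in 2 or more libraries of a fit. Limma 3.58.1 (trended moderated test, R 4.3.3) compared Quad against Ctrl and QuadD against Ctrl-D in 4 libraries each, and gave the difference of both effects and Ctrl-D against Ctrl from all 8. The Benjamini-Hochberg adjustment ran over all genes tested, with a threshold of 0.05. The scripts were checked on simulated data. Alternatives were other pseudocounts, filters and scalings, 1 fit of all libraries, a replicate block, voom on genes with whole counts, and leaving out each library.

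Subunit genes that averaged 10 RPKM or more in driver-only embryos, and any that passed a test, are given with values. Of the 14 other lists, up to 3 members per comparison and direction with the smallest p are named where they bear on the pump. Of 190 list members, 5 had no symbol in the tables. The members and lists were chosen with earlier results of these data known. Promoter and protein sequences were not used here.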

Additional observations from a re-analysis of the deposited data

Results flagged for a closer look

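No subunit gene met a rule for closer attention. Of the lysosome and endosome genes, 2 had effects that differed between the experiments. Hexo2, a hexosaminidase, had 32.8 and 23.9 RPKM in Quad, against 16.4 and 19.0 RPKM in Ctrl, and 5.18 and 5.38 RPKM in QuadD, against 13.5 and 16.2 RPKM in Ctrl-D. It was higher in both Quad libraries and lower in both QuadD libraries than in their controls, and the effects differed by -1.97 ± 0.25 (log2, limma, adjusted p = 0.00470). Npc2a, a sterol carrier, had 183 and 112 RPKM in Quad, against 50.2 and 57.5 RPKM in Ctrl, and 33.8 and 39.0 RPKM in QuadD, against 37.1 and 47.2 RPKM in Ctrl-D. The difference of its effects was -1.60 ± 0.30 (adjusted p = 0.0288), and its Quad libraries were far apart from each other. Groups of 2 libraries are too small for a test of single outlying libraries.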

How the results depend on the processing

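With no filter on low values, calls among the subunit genes numbered 2 in Quad against Ctrl (both higher, VhaM9.7-a and the nearly silent Vha36-2) and 5 in QuadD against Ctrl-D, and calls among all genes 2696 in Quad, 3140 in QuadD, 186 in the difference of both effects and 78 in Ctrl-D against Ctrl, where the reported counts are 5, 10, 4956, 5618, 291 and 133. Scaling by the median ratio over expressed genes gave 10 subunit calls in Quad, 1 higher and 9 lower, and split all calls there into 2106 higher and 2657 lower instead of 2601 and 2355. Quantile normalization split those in QuadD into 3456 higher and 2432 lower instead of 2794 and 2824, and moved the median of all genes to 0.11 in Quad and 0.14 in QuadD. One fit of all 8 libraries gave 8 subunit calls in Quad, 1 higher and 7 lower.

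Leaving out each library in turn gave 3 to 12 subunit calls and 2444 to 5325 calls over all genes in Quad, 4 to 14 and 3293 to 5128 in QuadD, 0 to 2 and 126 to 495 in the difference, and 0 to 2 and 4 to 983 in Ctrl-D against Ctrl. A lone library of a group was then assumed to vary like the other groups. Subunit changes that passed a test kept their sign under every alternative run. The 23 calls in Quad among the named genes of the pump-related lists were lost in 64 and kept in 212 alternative values, and 3 of them held in all. The 26 such calls in QuadD, CG31030 included, were lost in 42 and kept in 268, and 12 held in all.

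The labels do not say that replicate numbers pair libraries, and same-numbered libraries did not deviate together (correlations over genes of -0.043 and -0.095). With the replicate number as a block, the subunit counts stayed at 5, 10, 0 and 0, and 174 genes were called in the difference and 89 in Ctrl-D against Ctrl. Voom on genes with whole counts called 1 of 8 subunit genes in Quad and 2 of 9 in QuadD. The deposited values give no usable counts for most subunit genes, so the precision rests on 2 libraries per group.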
